A study of Mus musculus with 10 samples.

Results

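Cadherins and protocadherins were described here in RNA-seq libraries of mouse hippocampal CA3. Members were the genes with a protein-coding symbol, in GENCODE M21 on GRCm38, that begins with Pcdh or with Cdh and a digit, a rule that uses names and no measured value. It took 92 of the 18453 genes in the deposited tables: 57 protocadherins of the Pcdha, Pcdhb and Pcdhg clusters, and 35 other protocadherins and cadherins. The libraries came from CA3 of C57BL/6J mice that had received an adeno-associated virus (AAV) in CA3 of both hemispheres by stereotaxic surgery. The virus was AAV-shRNA(scramble), with a scrambled hairpin, in 5 scramble libraries, and AAV-shRNA(mef2c), with a hairpin against the transcription factor gene Mef2c meant for the pyramidal neurons of CA3, in 5 knockdown libraries. All animals therefore carried a virus and a hairpin, and no uninjected library was among those used here. The label of each library gives male, while the text on treatment allows for females too. Not given in the sources used here are the age of the mice, the promoter of the hairpin, the time from injection to collection, and whether a library is 1 animal or a pool.

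Cadherins and protocadherins are calcium-dependent adhesion proteins of the cell surface whose extracellular repeats bind repeats of the same kind on a neighbouring cell. Classical cadherins, of type I and type II, are tied to the actin cytoskeleton by catenins and hold synapses and other junctions together. Clustered protocadherins are read from tandem arrays of promoters, of which each neuron uses a few, so that neurons carry different combinations and recognise their own branches; CTCF and cohesin take part in the choice. Non-clustered protocadherins, of the delta1 and delta2 groups among others, act in axon growth, sorting and synapse formation and removal, and protocadherin 10 has been linked to synapse elimination driven by MEF2 factors.

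The libraries held 14701928 to 15637076 counts in the scramble group and 15669620 to 17798090 in the knockdown group. Levels are given in CPM (counts scaled to a library total of 1e+06), always in the order of libraries 1 to 5, and as mean ± SD over n = 5 libraries. Mef2c stood at 166, 198, 176, 311 and 173 CPM in the scramble libraries and at 110, 132, 121, 166 and 283 CPM in the knockdown libraries. Mef2c lay below every scramble library in knockdown 1 to 3 and at the level of the lowest scramble library in knockdown 4. In the library labelled knockdown 5 it lay above 4 of the 5 scramble libraries, which goes against its label. The group difference in Mef2c was -0.34 on the log2 scale (SE 0.30, adjusted p = 0.489; exact two-sided permutation test of log2(CPM + 1), p = 0.238, where the smallest p the design allows is 0.00794). Without scramble 4 and the library labelled knockdown 5 it was -0.45 (adjusted p = 0.0274). These are the libraries with the highest summed levels of 8 cortical layer markers, 469.5 and 479 CPM against 358 to 426 CPM in the others. CA3 pyramidal markers summed to 335 to 389.7 CPM in the scramble and 311 to 427 CPM in the knockdown libraries, and none of 6 passed the test. Microglia markers rose for 3 of 8 genes (Tmem119, Csf1r and Aif1), with sums of 265 to 348 CPM against 287 to 513 CPM. Of 5 astrocyte markers Aldh1l1 rose, without overlap of the groups, and the list summed to 1503 ± 150.2 and 1973 ± 538 CPM, a ratio of 1.31.

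Some cadherins and protocadherins were lower in the knockdown libraries and none passed as higher in edgeR. Of the 92 members, 82 had enough reads to be tested, and 13 fell while 0 rose at an adjusted p below 0.05 (edgeR quasi-likelihood test with Benjamini-Hochberg adjustment over 14393 genes). That is 15.9% of the tested members, against 7.61% of all tested genes called lower and 4.66% called higher. With offsets for transcript length and GC content, described further on, 1 member was called, and 0 when the replicate block was added. Offsets for unshared length and GC content gave 8, all clustered, where 2.06% of all genes were lower. At an unadjusted p below 0.05, 31 members were lower and 2 higher. Over all genes the share at an unadjusted p was not counted, here or in later mentions. In this fit it was at least the 12.3% called in either direction after adjustment. At an adjusted p below 0.05, DESeq2 called 17 lower and 0 higher, and limma-voom 26 lower and 1 higher. Those tests also called more genes of all kinds, 2555 and 3393 in either direction, against 1766 in edgeR. The log2 difference was negative for 67 of the 82 members, with a median of -0.26, where 47.2% of all tested genes were negative and their median was 0.02. The members that fell were Pcdha5, Pcdha11, Pcdhac2, Pcdhb2, Pcdhb15, Pcdhb16, Pcdhb21 and Pcdhgc4 of the clusters, and Pcdh9, Pcdh15, Pcdh17, Pcdh19 and Cdh4 of the rest. In bulk tissue, fewer cells of a type and less RNA per cell cannot be told apart. No label states that each library is its own animal, so the p-values refer to spread among libraries, part of which may be technical.

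How many members passed depended on single libraries. With scramble 1, 2, 3, 4 or 5 left out, 8, 2, 11, 4 and 2 members were called, and with knockdown 1, 2, 3, 4 or the library labelled knockdown 5 left out, 22, 4, 7, 6 and 16. All these called members were lower except Pcdhb12, higher without knockdown 1. Calls over all genes moved as well. They numbered 990, 631, 1711, 758 and 674 without scramble 1 to 5, and 3305, 737, 1137, 1061 and 1815 without knockdown 1 to 5. Without both scramble 4 and the library labelled knockdown 5, 8 members were called, all lower, and 1029 genes of all kinds. With knockdown 2, 3 and 4 left out together, 0 members and 0 genes of any kind passed in edgeR, while 14 members were lower and 1 higher at an unadjusted p below 0.05. These 3 libraries had the highest microglia marker scores, and with that score as a covariate 0 members passed (13 lower at an unadjusted p below 0.05, and 28 genes of all kinds called). The differences of the called members stayed negative under this covariate. Those of Pcdhac2 (-0.58), Pcdh9 (-0.37) and Pcdh17 (-0.34) were at least as large as without it. Pcdhb15 (-0.54) and Pcdha5 (-0.70) were slightly smaller, and the others shrank more. Pcdha11 went from -0.81 to -0.56, Pcdhb2 from -1.01 to -0.76, Pcdhb16 from -0.74 to -0.58 and Pcdhb21 from -0.96 to -0.60. Pcdhgc4 went from -0.42 to -0.32, Pcdh19 from -0.50 to -0.41, Pcdh15 from -0.66 to -0.36 and Cdh4 from -0.61 to -0.21. Summed astrocyte markers were also highest in these 3 libraries (2147 to 2480 CPM, against 1153 to 1734 in all others), and summed choroid plexus and ependyma markers were lowest (64.5 to 81.9 CPM, against 91.8 to 2736). The part of these cells in the members' levels was not tested.

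**Figure D1:**
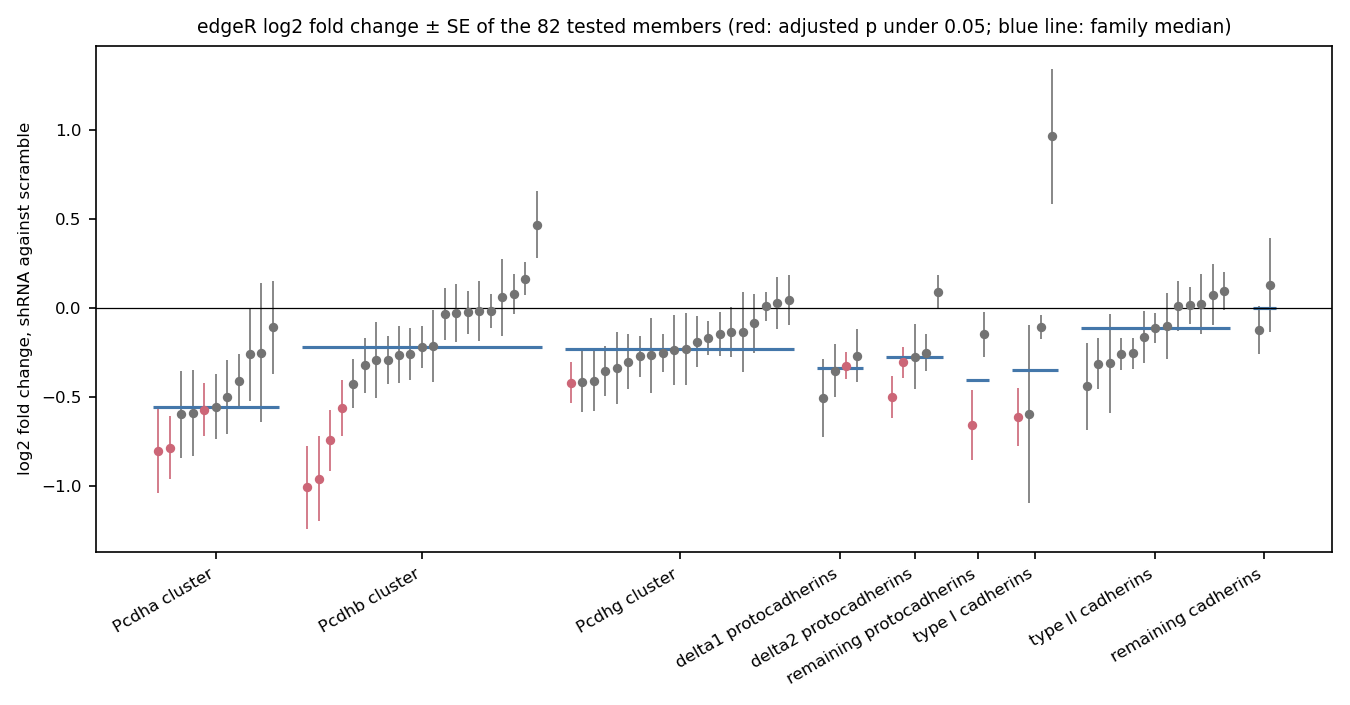
Log2 difference, knockdown minus scramble, with its SE, for each of the 82 tested members, arranged by family; red points passed at an adjusted p below 0.05 and blue lines mark family medians. Most points lie below 0, the Pcdha median is -0.56, and the type II cadherins centre on -0.11 with no red point.

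The 3 clusters lie in a row on the plus strand of chromosome 18 in GRCm38. The Pcdha genes span 36930184 to 37187661, the Pcdhb genes 37264938 to 37524479, and the Pcdhg genes 37661793 to 37841873. Each Pcdha and Pcdhg gene joins its own variable exon to constant exons common to its cluster, whereas Pcdhb genes consist of their own exons (Pcdhb21 and Pcdhb22 overlap by 455 bases). In the annotation, a Pcdha gene such as Pcdha5 shares 2860 of its 5206 exonic bases with other members, and the median clustered member has 2827 bases covered by no other gene, against 7487 for the other members. The authors' rule for reads in shared exons or on the opposite strand is not given in the sources, so such reads cannot be told apart between the genes. Pcdhga10, with 0 unshared bases, held 0 to 4 counts per library, and Pcdha4, with 404, held 0 to 6. Pcdha8, with 2478 unshared bases, and Pcdhb1, with 2588, also had too few reads for a test.

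**Figure D2:**
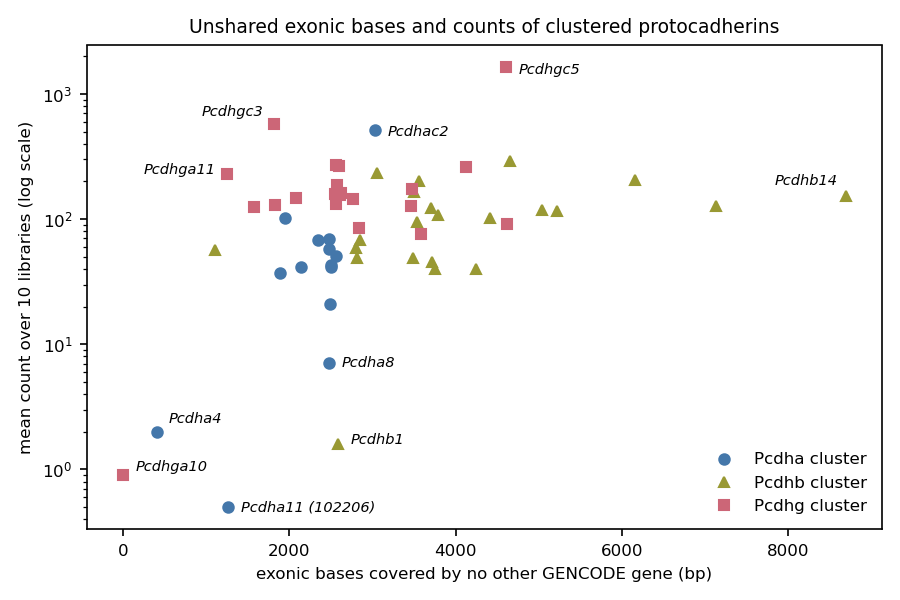
Mean count over the 10 libraries (log axis) against the number of exonic bases that no other annotated gene covers, for the clustered members. Members with the fewest unshared bases, Pcdhga10 with 0 and Pcdha4 with 404, have the lowest counts of their clusters along with the second gene named Pcdha11.

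Per kilobase of unshared exon, Pcdh1, a delta1 protocadherin, was the most abundant member at 53.0 CPM per kb in the scramble libraries. Pcdh20 followed at 24.7, Pcdhgc5 at 24.3, Pcdh8 at 22.2, Pcdhgc3 at 19.8 and Pcdh9 at 19.0 CPM per kb. The leading classical cadherins were Cdh2 at 14.5, Cdh11 at 10.1 and Cdh9 at 9.90 CPM per kb. Among the clustered genes the C-type members Pcdhgc5, Pcdhgc3 and Pcdhac2 (13.1 CPM per kb), which neurons use more constitutively than the alternate ones, led. Such levels depend on the length taken and order the genes only roughly. Too few reads for a test were found for Pcdha4, Pcdha8, the second gene named Pcdha11, Pcdhb1 and Pcdhga10 of the clusters, and for Pcdh12 (endothelial), Cdh3 (P-cadherin), Cdh16 (kidney), Cdh17 (liver and intestine) and Cdh26.

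The Pcdha cluster had the lowest median of the 3. All 11 tested members had a negative log2 difference, from -0.81 to -0.11 with a median of -0.56, and 3 of them fell: Pcdha5, Pcdha11 and Pcdhac2. Over all tested genes 7.61% were called lower. Pcdha5, an alternate isoform, stood at 5.04, 6.84, 4.64, 5.61 and 5.51 CPM in the scramble libraries and at 4.28, 2.98, 3.44, 2.72 and 2.69 CPM in the knockdown libraries. Every knockdown library lay below every scramble library. The means were 5.53 ± 0.831 and 3.22 ± 0.662 CPM, a log2 difference of -0.79 (SE 0.18, adjusted p = 0.0148). The call held in 9 of the 10 fits that left out 1 library and was lost without scramble 2 (adjusted p = 0.0524).

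Pcdhac2, the C-type gene with the highest level in the cluster, stood at 39.5, 36.6, 40.7, 40.3 and 40.9 CPM in the scramble libraries and at 38.2, 25.6, 28.5, 22.1 and 19.5 CPM in the knockdown libraries. The scramble libraries were close together, knockdown 1 lay among them, and the other 4 were lower. The means were 39.6 ± 1.78 and 26.8 ± 7.22 CPM, with a log2 difference of -0.57 (SE 0.15, adjusted p = 0.0289). Pcdha11, the gene at 37005203 to 37187657, had 3.09, 4.73, 2.85, 4.48 and 2.45 CPM in the scramble and 2.62, 1.97, 2.06, 1.42 and 2.03 CPM in the knockdown libraries. Here too only knockdown 1 overlapped the scramble range (-0.81, SE 0.24, adjusted p = 0.0419). RefSeq names the gene that starts at 37005320 Pcdha10 and puts Pcdha11 at 37010858, so the name differs between annotations. Leaving out 1 library at a time, Pcdhac2 kept its call in 4 of 10 fits and Pcdha11 in 2.

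Of the remaining Pcdha genes, Pcdha12 was at 7.05, 7.16, 7.76, 8.35 and 6.80 CPM in the scramble and at 7.59, 4.66, 4.94, 5.39 and 5.43 CPM in the knockdown libraries (-0.41, SE 0.15, edgeR adjusted p = 0.0865; limma-voom adjusted p = 0.0184). The pattern over libraries was that of Pcdhac2, with knockdown 1 among the scramble libraries and the other 4 below them. Pcdhac1, the other C-type Pcdha gene and chosen for mention after its values were seen, had groups that did not overlap (3.83 ± 0.588 and 2.61 ± 0.414 CPM, -0.56). Its adjusted p was 0.0598 in edgeR, 0.0455 in DESeq2 and 0.0406 in limma-voom. Summed over the cluster, Pcdha counts made up 78.8, 78.6, 77.9, 84.0 and 79.1 CPM in the scramble libraries and 77.1, 52.6, 56.4, 46.5 and 46.0 CPM in the knockdown libraries. The sums did not overlap, although knockdown 1 came within 1 CPM of the lowest scramble library. Their means, 79.7 ± 2.47 and 55.7 ± 12.7 CPM, gave a ratio of 0.699.

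Pcdhb genes, which have no constant exons, differed widely among themselves. Of 21 tested, 4 fell and 0 rose (6 lower and 1 higher at an unadjusted p below 0.05), 17 had a negative difference, and the median was -0.22 with a range from -1.01 to 0.47. The 4 were Pcdhb2, Pcdhb16, Pcdhb21 and Pcdhb15, where 7.61% of all tested genes were called lower. Pcdhb2 stood at 4.30, 4.80, 2.79, 3.94 and 5.10 CPM in the scramble libraries and at 3.06, 1.52, 1.94, 2.25 and 1.67 CPM in the knockdown libraries. Knockdown 1 lay above the lowest scramble library and the other 4 lay below them all. The means of 4.18 ± 0.901 and 2.09 ± 0.612 CPM differed by -1.01 on the log2 scale (SE 0.23, adjusted p = 0.016).

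Pcdhb16 had 9.40, 7.67, 8.22, 11.2 and 10.2 CPM in the scramble and 7.72, 4.61, 6.07, 4.56 and 5.08 CPM in the knockdown libraries. Again knockdown 1 alone reached the scramble range (-0.74, SE 0.17, adjusted p = 0.016). Pcdhb21 had 3.29, 2.88, 3.25, 4.01 and 3.47 CPM in the scramble and 2.68, 1.63, 1.00, 1.78 and 1.61 CPM in the knockdown libraries, without overlap (-0.96, SE 0.24, adjusted p = 0.0221). Pcdhb15 had 4.77, 4.73, 4.18, 4.88 and 3.74 CPM in the scramble and 3.13, 2.53, 3.13, 3.43 and 2.93 CPM in the knockdown libraries, also without overlap (-0.56, SE 0.16, adjusted p = 0.036). In fits without 1 library, the call held in 8 of 10 for Pcdhb2 and Pcdhb16, in 7 for Pcdhb21 and in 3 for Pcdhb15.

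The most abundant Pcdhb genes per kilobase did not pass the test. Pcdhb17 was at 18.5 ± 1.45 CPM in the scramble and 18.3 ± 2.29 CPM in the knockdown libraries (-0.02, SE 0.10, adjusted p = 0.926). Pcdhb9 was at 13.9 ± 1.42 and 15.7 ± 0.765 CPM (0.17, SE 0.09, adjusted p = 0.254). Both are alternate isoforms like those that fell, and their groups overlapped. Chosen after its values were seen, Pcdhb19 had groups that did not overlap (9.21 ± 1.25 and 6.90 ± 1.07 CPM, -0.43), with an adjusted p of 0.0594 in edgeR, 0.0352 in DESeq2 and 0.0398 in limma-voom. Pcdhb12, chosen in the same way, had the highest difference of the cluster (2.97 ± 0.569 and 4.13 ± 0.677 CPM, 0.47, edgeR adjusted p = 0.11). It was called higher in limma-voom (0.54, adjusted p = 0.0368) and in edgeR without knockdown 1 (0.55, adjusted p = 0.0495). The cluster summed to 163 ± 8.84 and 147 ± 6.08 CPM, a ratio of 0.899.

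In the Pcdhg cluster 1 of 20 tested members, Pcdhgc4, fell in edgeR and in DESeq2, limma-voom called 5 lower, and 17 had a negative difference (median -0.23, range -0.42 to 0.04). At an unadjusted p below 0.05, 6 were lower and 0 higher. The share of the cluster called lower in edgeR was 5%, against 7.61% of all tested genes. Pcdhgc4, the C-type isoform known for its part in the survival of neurons, stood at 14.1, 11.7, 13.4, 13.0 and 11.4 CPM in the scramble libraries and at 10.8, 7.75, 9.19, 9.77 and 10.2 CPM in the knockdown libraries. The groups did not overlap (12.7 ± 1.13 and 9.53 ± 1.15 CPM, -0.42, SE 0.12, adjusted p = 0.0327). The call held in 2 of 10 fits that left out 1 library, those without knockdown 1 and without the library labelled knockdown 5.

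The other C-type genes of this cluster are neighbours of Pcdhgc4 and are the most abundant in it. Pcdhgc5 had 111, 103, 115, 114 and 119 CPM in the scramble and 122, 89.8, 100.4, 86.0 and 75.1 CPM in the knockdown libraries. Knockdown 1 was the highest of the 10 libraries and the other 4 knockdown libraries were below the scramble range (-0.25, SE 0.11, edgeR adjusted p = 0.132; limma-voom adjusted p = 0.0141). Pcdhgc3 had 37.3, 32.4, 36.4, 35.9 and 38.1 CPM in the scramble and 38.7, 33.3, 41.5, 35.9 and 32.7 CPM in the knockdown libraries, with full overlap (0.01, SE 0.08, adjusted p = 0.954). Whether these 3 neighbours differ from each other in their change was not tested. The Pcdhg cluster summed to 347 ± 10.2 and 303 ± 44.1 CPM, a ratio of 0.873.

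**Figure D3:**
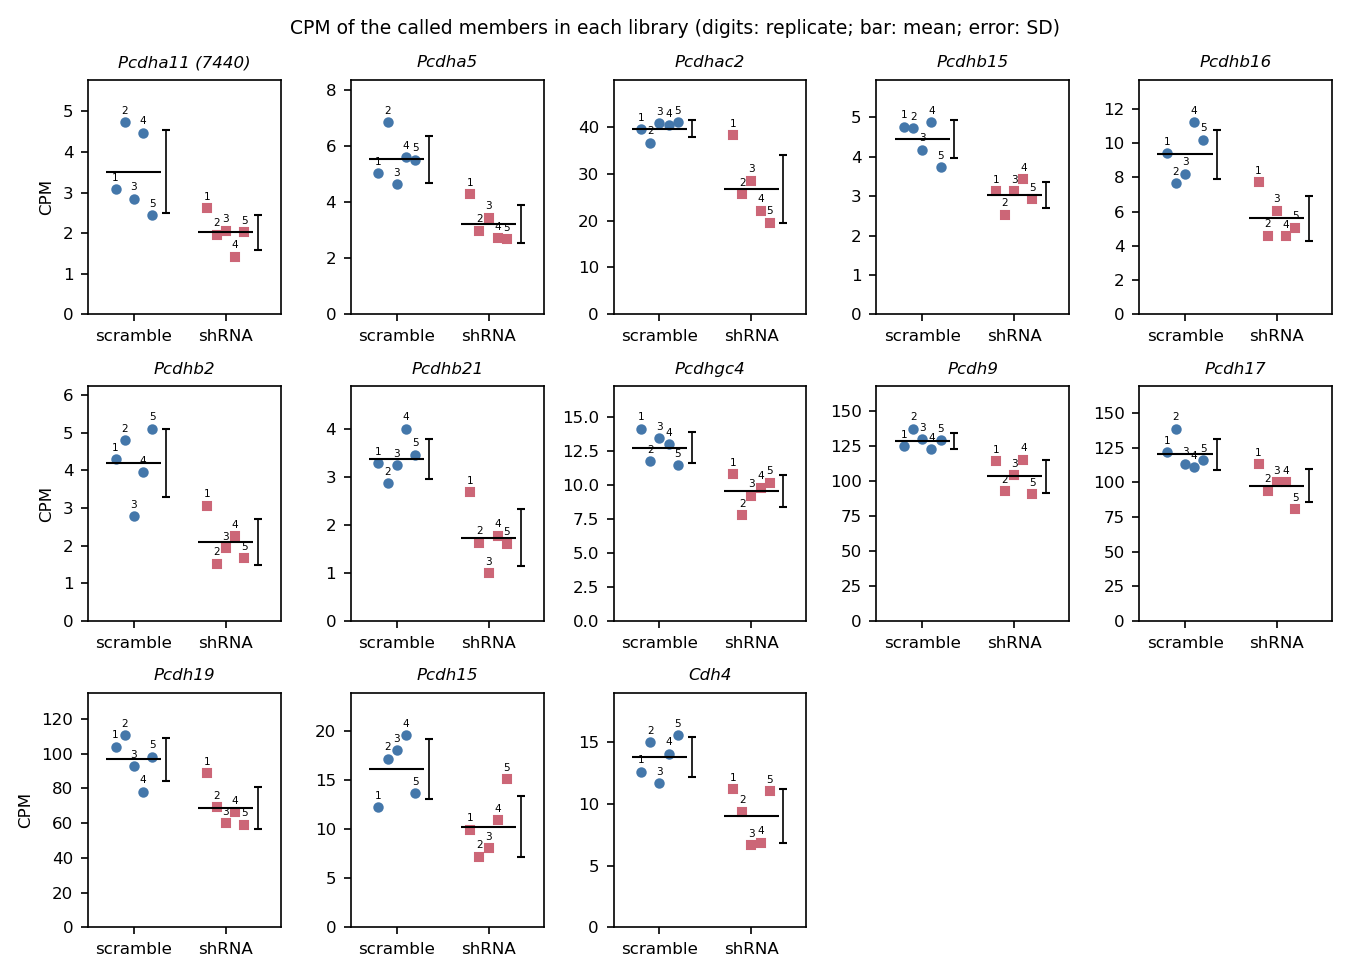
CPM in each library for the 13 members that fell, scramble and knockdown side by side; points are libraries, bars are means and error bars are SD (n = 5). For Pcdhac2, knockdown 1 at 38.2 CPM sits with the scramble libraries while the other 4 lie between 19.5 and 28.5 CPM.

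Outside the clusters, delta protocadherins, which are expressed in broad and partly graded patterns across forebrain neurons, gave 3 of the 5 members that fell. All 4 delta1 genes had a negative difference (median -0.34) and 1 fell, Pcdh9. Of the 5 delta2 genes, 4 were negative (median -0.27) and 2 fell, Pcdh17 and Pcdh19. The share called lower over all tested genes was 7.61%. With transcript offsets the delta2 median turned to 0.06, 2 of 5 were negative and 0 passed (0 at an unadjusted p below 0.05). The upstream sequences of these 3 genes and of Pcdh10, which did not pass in edgeR, are shown because Mef2c encodes a DNA-binding factor. Pcdh15, a non-clustered protocadherin outside the delta groups that also fell, is not printed. Each line gives the 250 bases before the RefSeq gene start (GRCm38.p6), 5′ to 3′ on the gene's strand, with CG dinucleotides in capitals: Pcdh9 at chr14:93890680-93890929 (minus), Pcdh17 at chr14:84443313-84443562 (plus), Pcdh19 at chrX:133688994-133689243 (minus) and Pcdh10 at chr3:45378148-45378397 (plus).
Pcdh9: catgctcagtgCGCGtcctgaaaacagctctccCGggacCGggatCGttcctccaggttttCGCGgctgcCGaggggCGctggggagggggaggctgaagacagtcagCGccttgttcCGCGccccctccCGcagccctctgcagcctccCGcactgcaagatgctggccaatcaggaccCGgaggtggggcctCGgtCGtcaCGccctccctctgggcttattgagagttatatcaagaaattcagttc
Pcdh17: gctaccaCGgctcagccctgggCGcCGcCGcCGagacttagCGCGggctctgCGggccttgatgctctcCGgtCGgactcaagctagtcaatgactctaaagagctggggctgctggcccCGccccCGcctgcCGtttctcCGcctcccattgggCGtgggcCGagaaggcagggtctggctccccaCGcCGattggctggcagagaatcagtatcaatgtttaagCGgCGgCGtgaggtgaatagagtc
Pcdh19: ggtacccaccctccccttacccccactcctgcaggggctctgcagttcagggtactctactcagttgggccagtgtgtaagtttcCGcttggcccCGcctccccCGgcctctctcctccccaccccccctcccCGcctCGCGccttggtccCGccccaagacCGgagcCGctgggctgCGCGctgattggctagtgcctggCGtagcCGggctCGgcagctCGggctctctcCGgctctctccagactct
Pcdh10: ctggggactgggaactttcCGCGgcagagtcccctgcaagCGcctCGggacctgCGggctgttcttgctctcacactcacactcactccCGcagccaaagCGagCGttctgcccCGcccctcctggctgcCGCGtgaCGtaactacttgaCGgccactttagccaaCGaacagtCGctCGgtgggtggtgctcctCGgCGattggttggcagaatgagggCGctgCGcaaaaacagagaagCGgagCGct

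These promoters hold 18, 21, 16 and 22 CG dinucleotides in the order printed, against a median of 6 over the 32851 promoters of the same length in the table. The choice of genes matters here. Pcdh15, which fell, had 6, and of the other non-clustered protocadherins matched, Pcdh20 had 3, Pcdh7 7, Pcdh8 11 and Pcdh18 23. The MEF2 consensus, searched on both strands (it reads alike on both), is in 0 of the 4 printed promoters and in 2.92% of all promoters. It was found in 2 of 25 entries for members, Pcdh20 and Cdh10, neither of which passed the test. The match in Pcdh20 lies at chr14:88471615-88471644 (minus) and that in Cdh10 at chr15:18820195-18820224 (plus), printed with the matching letters in capitals.
Pcdh20: ggagctacctTTAAAATTAAacctacaggc
Cdh10: aagatctattTTAAAAATAAtctgtccctg
A match describes the letters of this window and is not a binding site, and its absence says nothing of sites elsewhere. Promoters were matched for 22 of the 92 members and for 0 of the clustered genes.

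Pcdh9, an abundant delta1 protocadherin of forebrain neurons (chr14:93013410-93890679, minus strand), stood at 125, 137, 130.2, 123 and 129 CPM in the scramble libraries and at 114, 92.6, 104, 115 and 90.5 CPM in the knockdown libraries. The groups did not overlap. The means of 129 ± 5.66 and 103 ± 11.6 CPM differed by -0.33 (SE 0.07, adjusted p = 0.0152). The call held in 9 of 10 fits without 1 library and was lost without scramble 2 (adjusted p = 0.0516). Pcdh1, the delta1 gene with the highest level of any member, had 473, 434, 484, 452 and 486 CPM in the scramble and 514, 383, 459.5, 311 and 274 CPM in the knockdown libraries (-0.27, SE 0.15, adjusted p = 0.254). Its knockdown libraries spread from above to far below the scramble range. Pcdh7 and Pcdh11x, chosen after their values were seen, were at -0.35 (adjusted p = 0.136) and -0.50 (adjusted p = 0.14) in edgeR, and limma-voom called both lower (adjusted p = 0.0139 and 0.048).

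Pcdh19, the X-linked gene mutated in an epilepsy that affects mainly females (chrX:133582860-133688987, minus strand), stood at 104, 111, 92.9, 78.2 and 98.2 CPM in the scramble libraries and at 88.9, 69.2, 59.8, 66.4 and 59.1 CPM in the knockdown libraries. Knockdown 1 lay above the lowest scramble library and the other 4 below it (96.7 ± 12.3 and 68.7 ± 12.1 CPM, -0.50, SE 0.12, adjusted p = 0.0196). Pcdh17, found on presynaptic terminals (chr14:84443563-84539002, plus strand), had 122, 139, 114, 111 and 116 CPM in the scramble and 113, 94.1, 100.4, 100.1 and 80.9 CPM in the knockdown libraries. Only knockdown 1 overlapped the scramble range (-0.31, SE 0.09, adjusted p = 0.0361). Pcdh19 kept its call in 7 and Pcdh17 in 3 of 10 fits without 1 library.

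Pcdh10, which with the ubiquitin ligase Mdm2 delivers the scaffold protein PSD-95 to degradation in synapse elimination driven by MEF2 (chr3:45378398-45435623, plus strand), had 126, 136, 118, 149.8 and 128 CPM in the scramble and 111, 86.6, 109, 113 and 137 CPM in the knockdown libraries. In 4 knockdown libraries it was below every scramble library, and in the library labelled knockdown 5 it was above 4 of 5 of them. The difference over all libraries did not pass in edgeR (-0.25, SE 0.11, adjusted p = 0.127) and passed in limma-voom (-0.34, adjusted p = 0.0177) and in edgeR with the cortical marker score as a covariate (-0.23, adjusted p = 0.035). Without the library labelled knockdown 5 it passed in edgeR (-0.34, adjusted p = 0.0218). Pcdh10 did not pass in DESeq2, with the replicate block, with either set of offsets or with the microglia score as a covariate. Nor did it pass without both scramble 4 and the library labelled knockdown 5. Pcdh8, also called arcadlin, which synaptic activity induces and which draws N-cadherin into the cell, had 99.3, 89.2, 88.3, 83.8 and 94.1 CPM in the scramble and 97.1, 118, 104, 91.8 and 76.1 CPM in the knockdown libraries. The groups overlapped and the difference was positive without passing (0.09, SE 0.09, adjusted p = 0.548). Pcdh18 was at -0.27 (adjusted p = 0.329).

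Of the remaining protocadherins, Pcdh15, a tip-link protein of hair cells that oligodendrocyte precursors also express (chr10:73099342-74649737, plus strand), fell. It stood at 12.2, 17.2, 18.0, 19.6 and 13.7 CPM in the scramble libraries and at 9.96, 7.19, 8.07, 11.0 and 15.1 CPM in the knockdown libraries. The library labelled knockdown 5 was within the scramble range and the other 4 were below it (16.1 ± 3.08 and 10.3 ± 3.09 CPM, -0.66, SE 0.20, adjusted p = 0.0458). The call held in 2 of 10 fits, those without scramble 1 and without the library labelled knockdown 5. Of 5 oligodendrocyte precursor markers Pdgfra was lower (-0.32) and the others did not pass, with sums of 282 to 318 and 267 to 354 CPM and no marker at 0; their part in the level of Pcdh15 was not tested. Pcdh20 had 151, 155, 124, 113 and 136 CPM in the scramble and 134, 141, 135, 117 and 87.7 CPM in the knockdown libraries, and its groups overlapped (-0.15, SE 0.13, adjusted p = 0.454).

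Among the 4 tested type I cadherins, Cdh4 fell, where 7.61% of all tested genes were called lower. Cdh4, or R-cadherin (chr2:179442431-179899373, plus strand), stood at 12.6, 15.0, 11.7, 14.1 and 15.6 CPM in the scramble libraries and at 11.2, 9.38, 6.69, 6.87 and 11.0 CPM in the knockdown libraries. The groups did not overlap (13.8 ± 1.63 and 9.04 ± 2.19 CPM, -0.61, SE 0.16, adjusted p = 0.0278), and the call held in 4 of 10 fits without 1 library. Cdh2, or N-cadherin, the main classical cadherin of excitatory synapses, had 115, 125, 119, 110.0 and 117 CPM in the scramble and 117, 114, 115, 98.6 and 102 CPM in the knockdown libraries. Its groups overlapped and the difference did not pass (-0.11, SE 0.07, adjusted p = 0.283). Cdh1, or E-cadherin of epithelia, was at 1.96 ± 1.61 and 1.30 ± 0.416 CPM (adjusted p = 0.456). Cdh15, or M-cadherin of muscle, chosen after its values were seen, had the highest difference of all members (0.97, adjusted p = 0.107) at 1.36 ± 0.268 and 2.66 ± 1.91 CPM, with 6.01 CPM in knockdown 2 against 1.38 to 2.27 CPM in the other knockdown libraries.

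Of the 13 type II cadherins, 0 passed in edgeR in either direction, with 3 lower and 0 higher at an unadjusted p below 0.05 and 2 lower in DESeq2. Their median difference was -0.11 and 8 were negative. Cdh11, abundant in this family, had 87.8, 95.5, 89.4, 87.4 and 89.2 CPM in the scramble and 83.3, 74.6, 82.9, 80.5 and 57.4 CPM in the knockdown libraries. The groups did not overlap (-0.25, SE 0.09, adjusted p = 0.0712; DESeq2 adjusted p = 0.0477). Cdh8, which helps match neurons to their targets, had 65.4, 73.5, 66.6, 71.2 and 77.1 CPM in the scramble and 61.1, 68.9, 63.2, 56.4 and 47.1 CPM in the knockdown libraries. Only knockdown 2 reached the scramble range (-0.26, SE 0.09, adjusted p = 0.0695; DESeq2 adjusted p = 0.049). Apart from these and the 2 genes described next, the type II members Cdh6, Cdh7, Cdh10, Cdh12, Cdh18, Cdh19, Cdh20, Cdh22 and Cdh24 had differences from -0.44 (Cdh6) to 0.07 (Cdh24), none of which passed in edgeR.

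Cdh9, which CA3 and dentate neurons use at the mossy fibre synapse, had 36.9, 35.6, 30.8, 28.4 and 32.4 CPM in the scramble and 33.5, 44.2, 36.0, 34.6 and 27.9 CPM in the knockdown libraries. The groups overlapped throughout (0.09, SE 0.11, adjusted p = 0.597). Cdh5, or VE-cadherin of endothelial cells, had 15.2, 17.2, 16.3, 14.5 and 13.8 CPM in the scramble and 19.1, 14.2, 14.9, 14.6 and 15.5 CPM in the knockdown libraries, again with overlap (0.02, SE 0.11, adjusted p = 0.941). Of 6 endothelial markers Cldn5 and Ly6c1 rose, and the list summed to 209.8 to 234 and 226 to 274 CPM; their part in the level of Cdh5 was not tested. Cdh13, or T-cadherin, which is anchored by a lipid and lacks a cytoplasmic domain, had 39.6, 46.5, 41.6, 37.4 and 43.3 CPM in the scramble and 37.0, 32.0, 30.7, 38.4 and 53.6 CPM in the knockdown libraries. The library labelled knockdown 5 was the highest of all 10, and Cdh13 passed only when that library was left out (-0.12, adjusted p = 0.577 with it; -0.28, adjusted p = 0.0446 without it). Cdh23, the tip-link partner of Pcdh15, was at 3.00 ± 0.907 and 3.30 ± 1.02 CPM (0.13, SE 0.26, adjusted p = 0.781). Cdh13 and Cdh23 were the tested members outside types I and II, so 0 of 2 were called there (0 at an unadjusted p below 0.05, and 0 by DESeq2 and by limma-voom).

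The question of whether the clusters stood apart from the other members was described by counts, and the difference between the classes was not tested. Of 52 tested clustered members 8 fell (15.4%), and of 30 tested other members 5 fell (16.7%). Among all tested genes, 7.61% were called lower and 4.66% higher. The median log2 difference was -0.26 in the clustered and -0.25 in the other members, and 45 of 52 and 22 of 30 were negative. Groups did not overlap, with the knockdown libraries lower, for 6 clustered and 3 other members, 11% of the tested members, against 6% of all tested genes (3.38% in the other direction, where the members gave 0). Summed levels were 590.4 ± 9.55 and 506 ± 58.1 CPM for the clustered members, 1271 ± 34.1 and 1066 ± 129 CPM for the other protocadherins, and 546 ± 20.7 and 498 ± 12.5 CPM for the cadherins. The sums did not overlap for the clustered members (582 to 607 and 434 to 580.3 CPM) or the cadherins (526 to 579 and 478 to 510.3 CPM), and overlapped for the other protocadherins through knockdown 1 (1227 to 1314 and 912 to 1246 CPM). Leaving out scramble 1 to 5 gave 4, 2, 7, 2 and 1 clustered and 4, 0, 4, 2 and 1 other members called; leaving out knockdown 1 to 5 gave 17, 3, 5, 4 and 7 clustered and 5, 1, 2, 2 and 9 other members. Without both scramble 4 and the library labelled knockdown 5, 2 clustered and 6 other members were called. Calls over all genes in these fits are given above and moved with them.

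**Figure D4:**
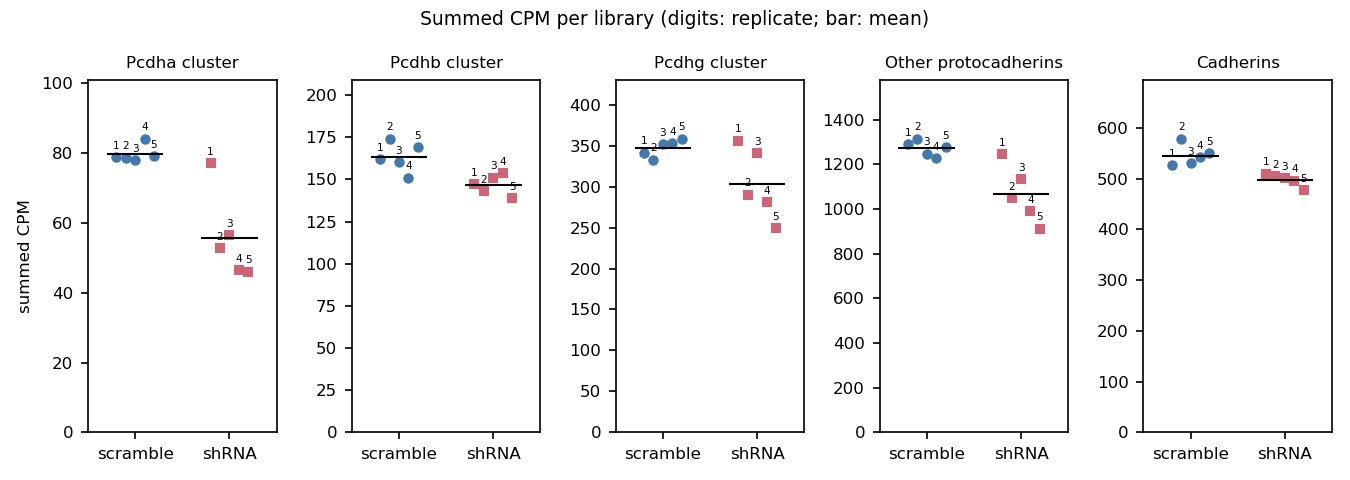
Summed CPM per library for the Pcdha, Pcdhb and Pcdhg clusters, the other protocadherins and the cadherins. Points are libraries and bars are means (n = 5). The Pcdha sum of knockdown 1, 77.1 CPM, lies just under the scramble libraries, and the other 4 knockdown libraries lie between 46.0 and 56.4 CPM.

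The libraries did not contribute evenly. Of the 13 members that fell, 6 had groups that did not overlap. In 6 of the other 7 (Pcdha11, Pcdhac2, Pcdhb2, Pcdhb16, Pcdh17 and Pcdh19) the only knockdown library within the scramble range was knockdown 1, and for Pcdh15 it was the library labelled knockdown 5. Knockdown 1 was below all scramble libraries for 7 of the 13, knockdown 2, 3 and 4 for 13 each, and the library labelled knockdown 5 for 12. That library was at the top of the knockdown group for Pcdh7 (77.6 CPM), Pcdh10 (137), Cdh13 (53.6), Cdh7 (11.1) and Cdh22 (31.0), named after their values were seen, and at the bottom for Pcdh1 (274 CPM) and Pcdhgc5 (75.1). With 1 library left out, the count of clustered members called was highest without knockdown 1, and that of the other members without the library labelled knockdown 5.

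Differences followed transcript length over all genes. Across the tested genes the median log2 difference went from 0.20 for longest transcripts under 2 kb through -0.07 for 4 to 6 kb to -0.34 above 8 kb. In the 4 to 6 kb bin the median was -0.27 for 36 clustered and -0.25 for 11 other members, and above 8 kb it was -0.40 for 8 other members. In the 2 to 4 kb bin, where all genes had 0.06, 13 clustered members had -0.03 and 8 other members 0.02. With offsets per library for longest-transcript length and GC content, 1 member was called, Pcdhb2 (-1.06, adjusted p = 0.0407), against 0.959% of all genes lower and 0.695% higher (15 members lower and 2 higher at an unadjusted p below 0.05). Under these offsets Pcdh17 turned to 0.09, Pcdh9 was at -0.11 and Pcdh19 at -0.14, while Pcdha5 was at -0.65 (adjusted p = 0.0591) and Pcdhac2 at -0.43 (adjusted p = 0.0762).

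Because constant exons may not be counted, the offsets were also taken from the length and GC content of unshared exonic bases. The same 8 clustered members then fell and 0 other members did (3 others at an unadjusted p below 0.05), where 2.06% of all genes were lower and 1.62% higher. Pcdha5 was at -0.93 (adjusted p = 0.0208), Pcdhac2 at -0.70 (adjusted p = 0.0375), Pcdhb2 at -1.09 (adjusted p = 0.0283) and Pcdhgc4 at -0.52 (adjusted p = 0.0258). The other 4 passed close to the threshold. They were Pcdha11 (-0.95, adjusted p = 0.0493), Pcdhb21 (-0.95, adjusted p = 0.049), Pcdhb16 (-0.695, adjusted p = 0.0477) and Pcdhb15 (-0.63, adjusted p = 0.0447). Among the others Pcdh9 was at -0.21 (adjusted p = 0.0756), Pcdh19 at -0.29 (adjusted p = 0.106), Cdh4 at -0.56 (adjusted p = 0.0661), Pcdh15 at -0.24 and Pcdh17 at -0.03. Class medians were -0.18 (clustered) and -0.09 (other) with transcript offsets, and -0.31 and -0.08 with unshared offsets. Binned by unshared length without offsets, 34 clustered members of 2 to 4 kb had a median of -0.26 and 4 others 0.08. All genes in that bin had 0.10. At 4 to 6 kb, 8 clustered members had -0.27 and 8 others -0.13, where all genes had 0.00. Above 8 kb, 14 other members had -0.29, where all genes had -0.20. Pcdhga10, with 2119 exonic bases shared with other members and 0 unshared, had almost no counts. Shared bases therefore hardly counted for that gene. For the other genes the authors' counting rule is not given in the sources used here.

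**Figure D5:**
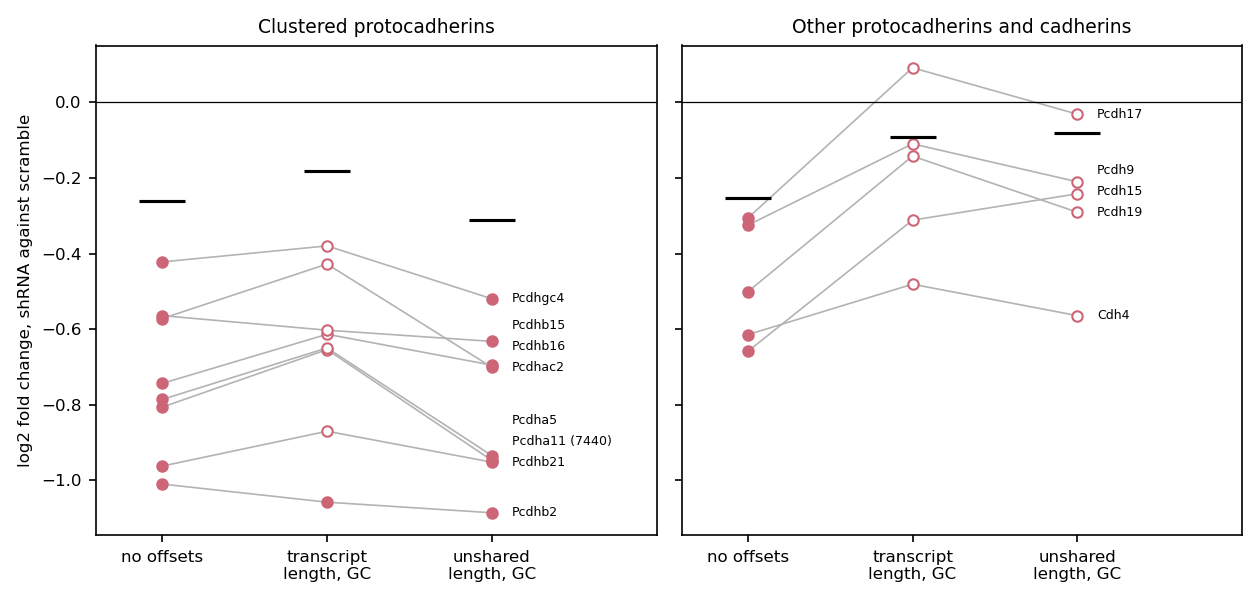
Log2 difference, knockdown minus scramble, of the 13 members that fell, without offsets, with offsets for transcript length and GC content, and with offsets for unshared length and GC content; filled points are called, and black bars are class medians. The other members move towards 0 under both offsets (Pcdh17 to 0.09 and -0.03), while the 8 clustered members stay filled under the unshared offsets.

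Genes that work with these proteins were taken from lists that were drawn up with earlier results of these data known. Of 66 listed genes 64 were tested, and 13 fell while 0 rose in edgeR, with a median of -0.10. That is 20.3% called lower, against 7.61% of all tested genes (4.66% higher); 20 were lower and 2 higher at an unadjusted p below 0.05. Of 12 catenins and junction linkers 2 fell: Afdn, the linker afadin, from 125 ± 3.23 to 94.9 ± 10.4 CPM (-0.40, adjusted p = 0.00446), and Vcl, the actin linker vinculin, from 29.9 ± 1.09 to 21.3 ± 4.77 CPM (-0.50, adjusted p = 0.0259). Beta-catenin, Ctnnb1, was at -0.07 (adjusted p = 0.546), and the neuronal catenin Ctnnd2 at -0.08 (adjusted p = 0.364). Afdn kept its call in 10 of 10 fits without 1 library and Vcl in 5. Such fits called 8, 7, 13, 7 and 7 partner genes without scramble 1 to 5, and 23, 7, 12, 9 and 14 without knockdown 1 to 5. Calls over all genes in the same fits are given above.

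Of 16 genes for promoter choice and chromatin of the clusters, all 16 had a negative difference and 5 fell, where 7.61% of all genes were called lower. Among them were the cohesin loader Nipbl (68.9 ± 2.32 to 51.7 ± 6.37 CPM, -0.42, adjusted p = 0.00557), the DNA methyltransferase Dnmt3a (-0.33, adjusted p = 0.0286), and the cohesin regulators Pds5a (-0.28, adjusted p = 0.0349) and Pds5b (-0.28, adjusted p = 0.0318). Ctcf itself did not pass (adjusted p = 0.968), at 76.2 ± 4.99 and 76.3 ± 4.60 CPM, and Smchd1, a repressor of the clusters, was at -0.22 (adjusted p = 0.0748). With transcript offsets 7 of the 16 were negative, the median turned from -0.17 to 0.02 and 0 passed. With unshared offsets 11 were negative and 0 passed. Pds5a turned to 0.04 and 0.09 under the 2 offsets. Leaving out 1 library at a time, Nipbl kept its call in 10 of 10 fits, Dnmt3a in 5, and Pds5a and Pds5b in 4 each.

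Among 19 tested genes of the wider cadherin superfamily 6 fell, where 7.61% of all tested genes were called lower. The longest transcripts of Fat1, Fat3, Fat4, Celsr3 and Dchs2 run from 10783 to 18760 bases. Over all genes the median above 8 kb was -0.34. That of Clstn2 has 4365 bases. Fat3 fell from 76.3 ± 8.43 to 44.3 ± 7.06 CPM (-0.79, adjusted p = 0.00113) and Fat4 from 52.2 ± 5.37 to 31.7 ± 3.71 CPM (-0.73, adjusted p = 0.000706); both are giant cadherins of planar polarity signalling. Dchs2, of the family of Fat4's ligands, was at 3.89 ± 0.600 and 1.69 ± 0.580 CPM (-1.21, adjusted p = 0.00924), and the synaptic calsyntenin Clstn2 at 205 ± 6.40 and 148 ± 23.1 CPM (-0.47, adjusted p = 0.00645). Celsr3 and Fat1 also fell (-0.38, adjusted p = 0.0328, and -0.55, adjusted p = 0.0395). Fat3, Fat4, Dchs2 and Clstn2 kept their calls in 10 of 10 fits without 1 library, Celsr3 in 3 and Fat1 in 1. Only Clstn2 passed with transcript offsets (-0.46, adjusted p = 0.0119), and 4 of the 6 passed with unshared offsets. Of all genes, 0.959% and 2.06% were lower under these offsets. Of 17 genes for signalling, shedding and turnover 0 passed (1 lower and 1 higher at an unadjusted p below 0.05, and 1 in each direction in DESeq2). Mdm2 and Dlg4, which encodes PSD-95 and works with Pcdh10 as described above, were at 0.06 (adjusted p = 0.599) and 0.04 (adjusted p = 0.677). With transcript offsets Dlg4 (0.25) and the GTPase gene Rhoa (0.37) passed as higher.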

How the data were processed

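RNA was extracted with Trizol and polyA+ libraries were sequenced on an Illumina instrument with paired reads, per the labels' protocols. The deposited files hold raw counts per Ensembl gene, and HISAT2, featureCounts and mm10 are named in the submitters' processing notes. For versions, strand settings and the counting annotation, the sources used here give nothing. Of 18453 genes, 18421 matched GENCODE M21, which gave symbols, coordinates, lengths and unshared exonic bases; 32 did not match.

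Counts were fitted with edgeR 4.0.16 in R 4.3.3 (filterByExpr, TMM, robust quasi-likelihood test) over all genes and all 10 libraries, with Benjamini-Hochberg adjustment and a threshold of 0.05. The SE is the log2 difference divided by the square root of F. CPM are counts scaled to a library total of 1e+06. Alternatives used DESeq2 1.42.0, limma-voom (limma 3.58.1), other scalings and filters, a replicate block, offsets from natural splines (5 degrees of freedom) of length and GC content, marker score covariates and fits without libraries. Scripts were tested on simulated data.

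Groups came from the titles, since the treatment label of knockdown 1 is misspelt. The count tables of libraries of a group differed by more than counting noise (chi-square per degree of freedom 3.85 to 39.2). Replicate numbers did not pair the libraries: correlations of same-numbered libraries ran from -0.11 to 0.40, and 3 of 5 exceeded 0.1.

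Named with full values were, in each family, up to 4 called members with the smallest p and the 2 with the highest scramble CPM per kb, 10 members chosen by name, and Mef2c; called partner genes, except 1 that is not reported here, and 6 others were also named. Members and lists were chosen with earlier results of these data known. Promoter sequences are those of RefSeq (GRCm38.p6).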

Additional observations from a re-analysis of the deposited data

Results flagged for a closer look

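In 6 of the 110 groups of 5 libraries examined, 1 library stood far from the rest by Dixon's test at the 95% level, which chance alone gives in about 5% of groups. Among the members, Pcdha12 had 7.59 CPM in knockdown 1, where the next knockdown library had 5.43 CPM, Cdh5 had 19.1 CPM in the same library against 15.5 CPM in the next, and Cdh11 had 95.5 CPM in scramble 2 against 89.4 CPM in the next scramble library. The summed Pcdha level was 84.0 CPM in scramble 4 and 79.1 CPM in the next. Mef2c was at 311 CPM in scramble 4, with 198 CPM in the next scramble library. Pds5a was at 50.5 CPM in the library labelled knockdown 5, with 66.2 CPM in the next lowest knockdown library.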

How the results depend on the processing

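With DESeq2 size factors, upper quartile scaling, no filter or a filter on CPM, the same 13 members were called. In the order all members, clustered members, other members and partner genes, the counts of 13, 8, 5 and 13 became 27, 17, 10 and 21 with limma-voom, 1, 1, 0 and 3 with transcript offsets, 0, 0, 0 and 2 with those offsets and the replicate block, 0, 0, 0 and 1 with the microglia covariate, and 0 in each without knockdown 2, 3 and 4. Over all genes, 1766 called became 3393, 238, 207, 28 and 0 in the same order of settings. Unshared offsets gave 8 members, 8 clustered and 0 others, with 529 genes of all kinds. Leaving out scramble 4 and the library labelled knockdown 5 gave 8 members, 2 clustered, and 8 partner genes, with 1029 genes of all kinds. The cortical covariate gave 23 members and 11 others, with 2658 genes of all kinds. The replicate block alone gave 10 members, 6 clustered, 4 others and 11 partner genes, with 1313 genes of all kinds. Numbers do not pair the libraries, and 2 libraries correlated best with their own number. Without 1 library the counts ran from 2 to 22, 1 to 17, 0 to 9 and 7 to 23, and those over all genes from 631 to 3305. The clustered minus other difference in median log2 change, -0.01, ran from -0.12 to 0.02 without 1 library, and was -0.23 with unshared offsets and -0.18 with the microglia covariate.

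Pcdh17 reversed to 0.0918 with transcript offsets and to 0.0937 with the replicate block added. Pds5a reversed to 0.0395 with transcript offsets, 0.0363 with the block added and 0.0859 with unshared offsets. All these reversals came in fits with offsets, where the alternative itself removes the trend with length. Their cause was not tested. Depth limits the members near 2 to 5 CPM, where counting error is largest.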
